A study of Mus musculus with 16 samples.

Results

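The transcripts of 7 GABA receptor subunits were measured by RNA sequencing in the dentate gyrus of aged mice. The members were taken by gene name: Gabra2, Gabra3, Gabra4, Gabra5 and Gabrd of the GABA-A receptor, and Gabbr1 and Gabbr2 of the GABA-B receptor. All 7 had 1 entry in each table and passed the filter on low values, among 24421 gene names listed and 17317 tested. The libraries came from male C57BL/6 mice aged 1 year, in 4 groups of 4 libraries. The groups were p16Ink4a +/+ sedentary (p16 WT CTL), p16Ink4a -/- sedentary (p16 KO CTL), p16Ink4a +/+ after 12 days of voluntary running (p16 WT RUN) and p16Ink4a -/- after 12 days of running (p16 KO RUN). Each library pooled the dentate gyri of 2 mice, so that a group stood for 8 animals. The null allele was made in FVB mice and was bred into C57BL/6 by the study. It is present in every cell and leaves p19Arf, the other product of the locus, in function. Libraries are named here by group and by the replicate number of their label, which runs from 1 to 16 and pairs no libraries.

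GABA is the main inhibitory transmitter of the adult brain. It acts on GABA-A receptors, chloride channels built from several subunits that include alpha subunits, and on GABA-B receptors, which are coupled to G proteins. The alpha subunit sets where a GABA-A receptor sits and how it responds. Receptors with the subunits encoded by Gabra2 and Gabra3 are mostly found at synapses. Those that join the Gabra4 and Gabrd products lie outside synapses and carry a tonic current, for which dentate granule neurons are known, and Gabra5 receptors also lie largely outside synapses in hippocampal neurons. The GABA-B receptor works only as a pair, in which the Gabbr1 product binds GABA and the Gabbr2 product brings the pair to the membrane and couples it to the G protein. Tonic GABA signalling is also known to keep neural stem cells of the dentate gyrus quiet.

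The tables list each gene as TPM, a level scaled for transcript length and library size that can be compared between genes. The mean coverage over the transcripts of a member was at least 20.2 reads per base for Gabra3, 76.8 for Gabrd and 170.3 or more for the others in every library. The relative depth, from the coverage of all genes, was 0.964 to 1.98 in the sedentary and 0.703 to 1.04 in the running libraries. Prox1 (58.1 to 187.3 TPM) and C1ql2 (199.3 to 610.3 TPM), which mark dentate granule neurons, were present in all 16 libraries. Cdkn2a, the gene that encodes p16Ink4a, was at or below 0.586 TPM in every library of both genotypes, so it does not check the genotype labels. Some properties of single libraries touch the results below. The summed level of a list of 8 nuclear RNAs (Malat1, Meg3 and others) was 977 TPM in p16 WT CTL replicate 2, 541 in p16 KO CTL replicate 6 and 479 in p16 KO CTL replicate 7, against 1828 to 2533 in the other 13. The CA1 pyramidal markers summed to 269.0 TPM in p16 KO CTL replicate 8, against 68.5 to 152.0 elsewhere, and the 7 granule neuron markers were at their lowest there, 526.5 TPM against 667.1 to 1425. Choroid plexus markers summed to 212.2 TPM in p16 KO CTL replicate 7, against 16.4 to 61.7 elsewhere.

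Over all 16 libraries the GABA-B subunits gave the highest levels. Gabbr1 averaged 489.5 TPM ± 23.7 (SD, n = 16) and Gabbr2 262.3 ± 24.2, followed by Gabra5 at 219.8 ± 22.1, Gabra2 at 160.7 ± 61.3, Gabra4 at 99.8 ± 13.6, Gabrd at 58.5 ± 14.7 and Gabra3 at 14.1 ± 3.92. The steps from Gabbr1 to Gabbr2, from Gabra4 to Gabrd and from Gabrd to Gabra3 held in 16 of 16 libraries. The neighbours in between crossed: Gabbr2 was above Gabra5 in 13 libraries, Gabra5 above Gabra2 in 12 and Gabra2 above Gabra4 in 12. The members differed in how much replicates of a group varied. The within-group SD of the log2 level was 0.52 for Gabra2, 0.38 for Gabrd and 0.36 for Gabra3, larger than in 98.4%, 95.7% and 95.4% of 9998 genes with a mean of 10 to 1000 TPM, whose median was 0.13. It was 0.063 for Gabbr1 and 0.064 for Gabbr2, where only 6.81% and 6.98% of those genes varied less.

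**Figure D1:**
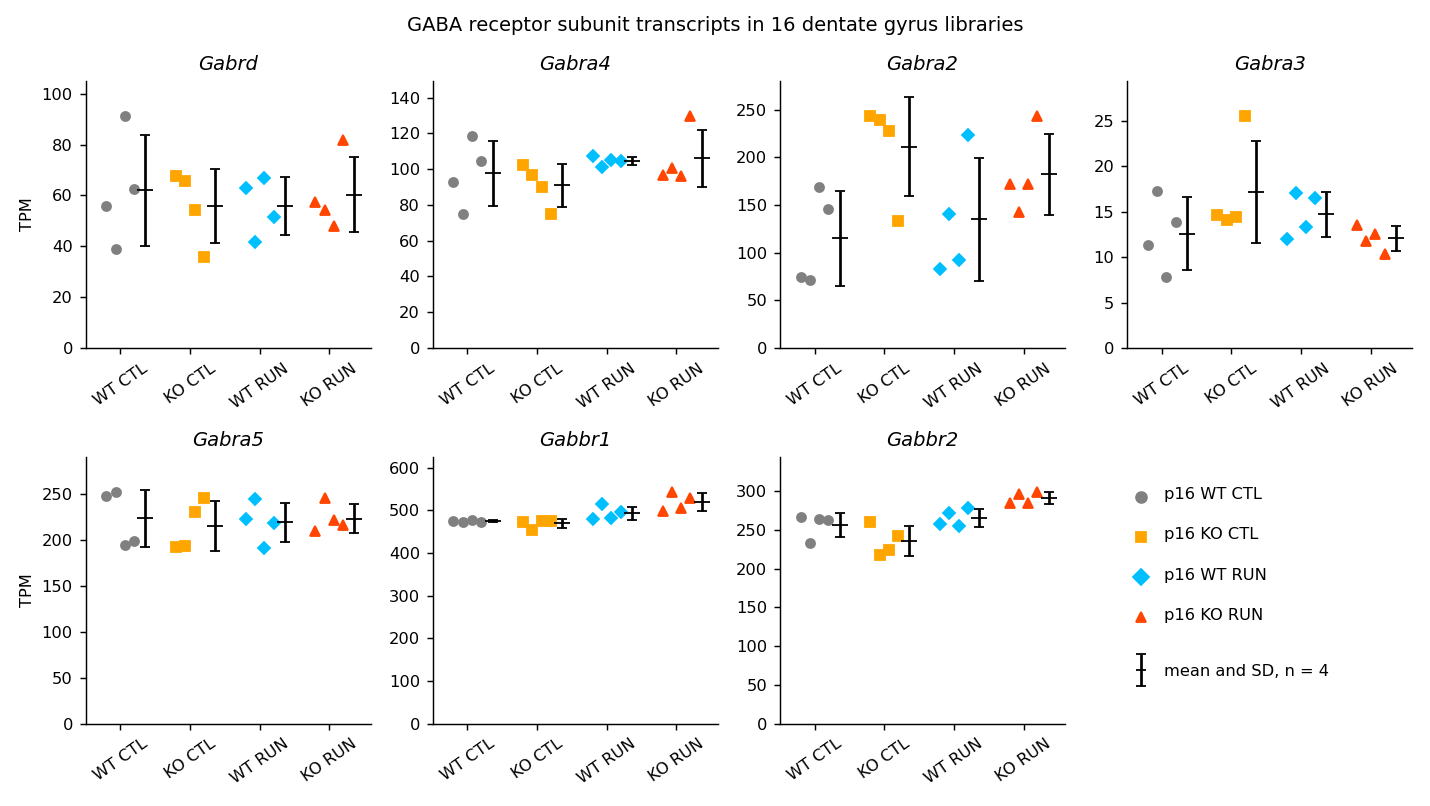
TPM of each member by group, 1 point per library, with the mean and SD of the 4 libraries in black; every axis starts at 0. Gabbr1 and Gabbr2 vary little within a group and Gabbr2 is highest in p16 KO RUN, while Gabra2 and Gabrd spread widely inside every group.

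The 3 members called in any comparison differ in where their genes start. Gabbr2 spans chr4:46663898-46991714 on the minus strand of mm10, Gabra3 spans chrX:72432676-72656246 and Gabra2 chr5:70961057-71095849, both also on the minus strand. Gabra4 (chr5:71569734-71658308), Gabra5 (chr7:57407669-57510009) and Gabrd (chr4:155384979-155398069) lie on the minus strand too, and Gabbr1 (chr17:37045966-37074305) on the plus strand. The windows printed here run from 250 bases before to 50 bases after the start in RefSeq (GRCm38.p6, the same assembly as mm10), read 5′ to 3′, with each CpG in capitals, since CpG content separates the kinds of promoter. They lie at chr4:46991665-46991964, chrX:72656758-72657057 and chr5:71095800-71096099. RefSeq gives 2 starts for Gabra3, both upstream of the gene edge in the tables, and the nearer, 561 bases away, is shown.
Gabbr2: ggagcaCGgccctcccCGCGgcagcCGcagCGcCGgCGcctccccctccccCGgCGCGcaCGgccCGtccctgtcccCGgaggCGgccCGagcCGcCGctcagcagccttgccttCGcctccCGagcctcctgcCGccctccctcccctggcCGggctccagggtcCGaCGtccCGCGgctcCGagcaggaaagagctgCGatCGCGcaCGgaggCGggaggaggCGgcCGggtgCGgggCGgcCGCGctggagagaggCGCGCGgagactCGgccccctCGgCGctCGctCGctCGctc
Gabra3: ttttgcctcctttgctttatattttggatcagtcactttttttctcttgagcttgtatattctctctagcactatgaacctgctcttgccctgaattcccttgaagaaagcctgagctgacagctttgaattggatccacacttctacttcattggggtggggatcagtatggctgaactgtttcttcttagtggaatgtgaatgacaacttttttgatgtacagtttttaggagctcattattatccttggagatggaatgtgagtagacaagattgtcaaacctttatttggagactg
Gabra2: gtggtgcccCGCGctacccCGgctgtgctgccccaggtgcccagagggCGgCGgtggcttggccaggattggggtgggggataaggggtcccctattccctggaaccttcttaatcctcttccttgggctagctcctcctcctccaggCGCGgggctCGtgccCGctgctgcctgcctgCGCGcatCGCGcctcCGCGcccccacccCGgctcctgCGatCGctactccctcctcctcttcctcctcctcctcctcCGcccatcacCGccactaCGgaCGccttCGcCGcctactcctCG
The Gabbr2 window holds 46 CpG in 300 bases and is 80.3% G and C, with more CpG than 98.4% of 27025 RefSeq promoter windows of the same length. The Gabra3 window holds none and is 39.3% G and C. The Gabra2 window holds 25, against a median of 7 over all windows. RefSeq windows were also matched for Gabbr1 (18 CpG), Gabra5 (13) and Gabra4 (12), so that 6 of the 7 members had one. On both strands, the full cyclic AMP response element TGACGTCA, its short form TGACG (contained in the full one), the Egr1 motif GCGTGGGCG and the AP-1 motif TGANTCA were in none of the members' windows, against 1.88%, 21.0%, 0.625% and 7.93% of all windows.

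Each set compared 8 libraries on log2(scaled TPM + 0.1), and a gene was called at an unadjusted p under 0.05 in limma, the level that the study also used; Benjamini-Hochberg adjusted values over all genes are given beside it. Set A compared p16 KO RUN with p16 KO CTL and asks what running did without p16. Set B compared p16 KO CTL with p16 WT CTL and asks what the loss of p16 did at rest. Set C gave the running effect with p16 present, p16 WT RUN against p16 WT CTL. In Set D the p16 KO RUN libraries were compared with p16 WT CTL, and in Set E with p16 WT RUN. The sets share libraries, so they are not independent of each other. Those of p16 KO CTL serve Sets A and B, and those of p16 WT CTL Sets B, C and D. Those of p16 WT RUN serve Sets C and E, and those of p16 KO RUN Sets A, D and E. In Set A 2 of the 7 members were called, beside 18.5% of all genes. That share rested on single libraries: it was 8.49% without the 3 libraries low in nuclear RNA, where Gabbr2 and Gabra3 were called as well, and 11.7% to 27.4% with 1 library left out. In Set B 1 was called (6.69% of all genes), in Set C none (0 of 7, beside 4.81%). Sets D and E called 2 (8.63% of all genes) and 1 (3.87%). In the genotype by running interaction 2 were called, beside 5.48% of all genes. No member passed an adjusted p of 0.05 in limma in any of them, which 0.0173% of all genes did in Set A, 0.00577% in Set E and 0 in the others. The median log2 fold change of the members was 0.06, 0.01, 0.04, 0.12 and 0.08 in Sets A to E, and that of all tested genes 0.02, -0.01, 0.00, 0.00 and 0.00.

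**Figure D2:**
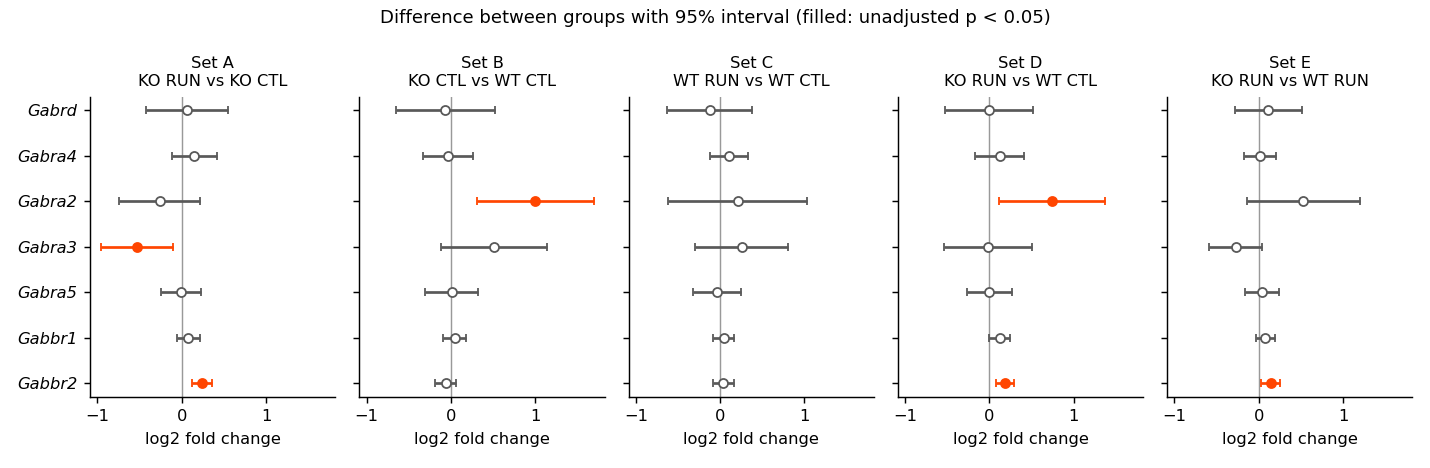
log2 fold change of each member in the 5 sets with its 95% interval from limma (8 libraries per set); filled points have an unadjusted p under 0.05. Gabbr2 lies right of 0 in Sets A, D and E, Gabra3 left of 0 in Set A, and Gabra2 right of 0 in Sets B and D with wide intervals.

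Gabbr2, the coupling subunit of the GABA-B receptor, was the member whose p16 KO RUN libraries all lay above those of every other group, by a small margin. Its level was 284.3, 296.5, 285.0 and 299.3 TPM in p16 KO RUN. Sedentary knockout libraries (p16 KO CTL) had 259.7, 217.0, 224.0 and 241.8 TPM. All 4 p16 KO RUN libraries were above all other 12, a pattern found in 17 genes or 0.0982% of those tested. The nearest were p16 KO RUN replicate 13 at 284.3 TPM and p16 WT RUN replicate 12 at 278.6 TPM. Their scale factors of 1.02 and 1.00 bring them closer still. The level was 256.8, 272.0, 255.2 and 278.6 TPM in p16 WT RUN. For p16 WT CTL it was 266.2, 233.2, 264.1 and 262.8 TPM, and the wild-type groups overlapped. In Set A Gabbr2 rose by a log2 fold change of 0.24 (SE 0.053), a 1.18-fold difference (adjusted p = 0.133 in limma). Set D gave a log2 fold change of 0.18 (SE 0.047, adjusted p = 0.313 in limma), and Set E one of 0.14 (SE 0.050, adjusted p = 1 in limma). The groups did not overlap in these 3 sets, which gave an exact two-sided permutation p of 0.0286 each, the smallest that 4 against 4 libraries can give. Such a separation was seen in 10.4%, 5.68% and 2.46% of all genes in Sets A, D and E. These shares and counts are on the scaled values, on which no member separated the groups in Sets B and C and 2.7% and 3.34% of all genes did. In Sets B and C Gabbr2 was not called (log2 fold changes of -0.06 and 0.04, 95% intervals -0.19 to 0.07 and -0.09 to 0.17). The running effect was larger in the knockout than in the wild type by 0.20 on the log2 scale (SE 0.073, adjusted p = 0.797 in limma for the interaction). The study singled out Gabbr2 and Gabra3 in these same libraries, so their direction here is no independent evidence.

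Nuclear RNA moved with Gabbr2. The 3 lowest Gabbr2 levels of all were in p16 KO CTL replicates 6 and 7 and p16 WT CTL replicate 2, the 3 libraries low in nuclear RNA. Depth differed there too. Despite the low TPM, Gabbr2 coverage was highest in p16 WT CTL replicate 2 (1400 reads per base) and p16 KO CTL replicate 7 (1200). Elsewhere it was 499.2 to 833.3, with 691.3 in p16 KO CTL replicate 6. The part of depth was not tested. Over the 16 libraries the log2 level of Gabbr2 correlated with the summed nuclear RNA level (Pearson r = 0.62, permutation p = 0.0073, adjusted p = 0.0206 over 14 relations; Spearman rho = 0.52, permutation p = 0.039, adjusted p = 0.109). With the 2 libraries farthest from the median left out, r was 0.41, and within groups it was 0.54. Without the 3 libraries Gabbr2 was still called, at 0.20 in Set A, 0.16 in Set D and 0.18 in the interaction. Set E, which holds none of the 3, was not touched, but its call was lost without p16 WT RUN replicate 9 (0.12), p16 WT RUN replicate 11 (0.11) or p16 KO RUN replicate 14 (0.12).

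Gabbr1, the GABA-binding partner, was called in no set as fitted, but in Set D it lay at the edge of the threshold. Its level was 498.0, 544.4, 504.8 and 529.8 TPM in p16 KO RUN and 481.1, 514.2, 482.6 and 496.9 TPM in p16 WT RUN. Of the sedentary groups, p16 KO CTL had 473.9, 454.3, 475.4 and 476.2 TPM and p16 WT CTL 475.5, 472.6, 478.8 and 473.9 TPM. In TPM as listed, all running libraries of both genotypes were above all sedentary ones, so that Sets A, C and D did not overlap, beside 10%, 3.34% and 5.56% of all genes in TPM as listed. After scaling of the libraries the groups overlapped in every set. The largest difference was in Set D, at a log2 fold change of 0.12 (SE 0.054, a 95% interval from just below 0 to 0.25, adjusted p = 0.58 in limma). It was called there under 6 of the 9 other filters, pseudocounts, scalings, units and fits (0.12 to 0.13), without the 3 libraries low in nuclear RNA (0.14), with the granule marker (0.13) or the nuclear RNA level (0.15) as a covariate, and without p16 WT CTL replicate 2 (0.14) or p16 KO RUN replicate 13 (0.15). In Set A it was 0.08 (95% interval -0.06 to 0.21), which became 0.14 without scaling and 0.16 with quantile normalization, and was called in both. The ratio of Gabbr2 to Gabbr1 within a library does not depend on the scaling. It averaged 0.561 ± 0.0115 (SD, n = 4) in p16 KO RUN and 0.501 ± 0.035 in p16 KO CTL. Wild-type libraries gave 0.538 ± 0.0153 after running and 0.540 ± 0.0311 at rest. The exact two-sided permutation p was 0.0571 in Sets A and E (0.143 adjusted over the 5 sets), 0.171 in Set B and 0.229 in Set D (0.286 adjusted), and 1 in Set C, and none passed 0.05. With 4 against 4 libraries the smallest p is 0.0286, and 0.143 once adjusted for a single set of the 5, so these tests do not show that the ratios were alike.

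**Figure D3:**
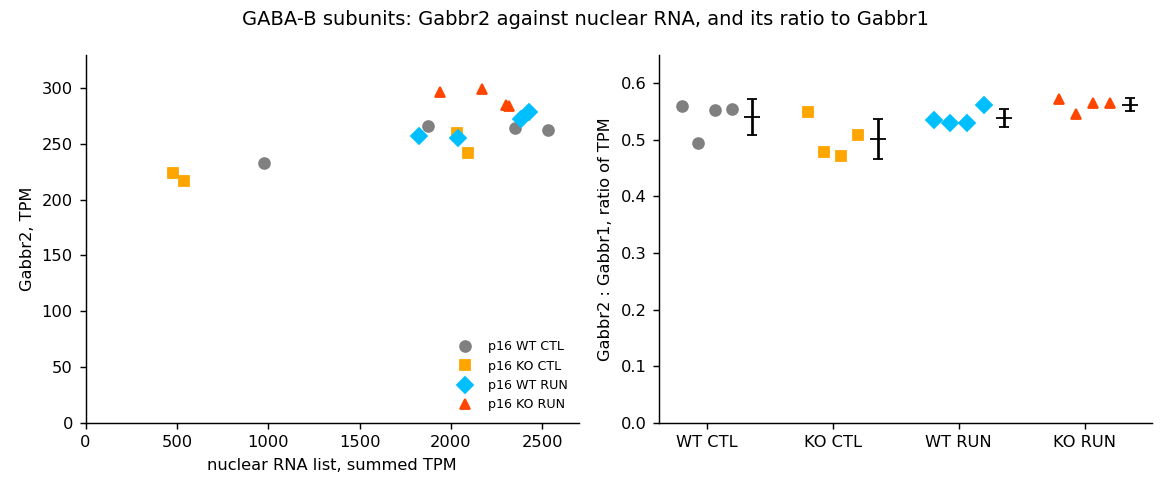
Left, Gabbr2 in TPM against the summed TPM of 8 nuclear RNAs; right, the ratio of Gabbr2 to Gabbr1 by group with mean and SD; 1 point per library. The 3 libraries under 1000 TPM of nuclear RNA have the 3 lowest Gabbr2 levels, and the p16 KO RUN points lie above all others on the left.

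Gabra3, an alpha subunit of synaptic receptors, was the only member called lower in Set A. Its level was 13.6, 11.8, 12.5 and 10.4 TPM in p16 KO RUN. Sedentary p16 KO CTL libraries had 14.6, 14.0, 14.4 and 25.6 TPM. The groups did not overlap, although the gap between them was small and 1 p16 KO CTL library, replicate 8, lay far above the rest. The log2 fold change was -0.53 (SE 0.19), a 0.694-fold level, with p = 0.0208 (adjusted p = 0.226 in limma, exact two-sided permutation p = 0.0286). Gabra3 was at 12.0, 17.1, 13.4 and 16.5 TPM in p16 WT RUN and at 11.4, 17.3, 7.85 and 13.9 TPM in p16 WT CTL, and these values spanned those of both knockout groups except replicate 8. Gabra3 was not called in Set B (0.51, 95% interval -0.11 to 1.14), Set C (0.25, -0.30 to 0.80), Set D (-0.02, -0.54 to 0.51) or Set E (-0.27, -0.58 to 0.04). The interaction was -0.78 (SE 0.33, adjusted p = 0.797 in limma), and its call was lost when any 1 of 6 libraries was left out, p16 WT CTL replicates 1 and 3, p16 KO CTL replicate 8, p16 WT RUN replicates 10 and 12 and p16 KO RUN replicate 16 (-0.75 to -0.56). In Set A the call was lost without p16 KO RUN replicate 16 (-0.45), and without p16 KO CTL replicate 8 the difference was smaller but still called (-0.33). In Set B Gabra3 was called without p16 WT CTL replicate 2 (0.71), without the 3 libraries low in nuclear RNA (0.88) and with all libraries in 1 fit (0.51). The Set B difference was smaller and not called without p16 WT CTL replicate 3 (0.29) or p16 KO CTL replicate 8 (0.31). The same held with the granule marker level as a covariate (0.28). In Set E it was called without p16 WT RUN replicate 9 (-0.37) and with the granule marker (-0.22) or the nuclear RNA level (-0.29) as a covariate. Markers of CA1 pyramidal neurons had the sign of the Gabra3 difference in Sets A, B, C and E and in the interaction, but not in Set D. Their median log2 fold change was -0.49 in Set A (1 of 5 called lower, beside 18.5% of all genes called). It was 0.73 in Set B (1 called higher, 6.69% of all genes) and 0.45 in Set C (1 called higher, 4.81%). In Set D it was 0.21 (none called, 8.63%) and in Set E -0.26 (1 called lower, 3.87%). In the interaction it was -1.28 (2 called lower, 5.48%). The summed level of these markers was 82.1 to 269.0 TPM in p16 KO CTL, with its maximum in replicate 8. It was 76.5 to 134.2 in p16 KO RUN, 87.3 to 152.0 in p16 WT RUN and 68.5 to 96.6 in p16 WT CTL. The part of the CA1 markers in the Gabra3 differences was not tested.

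Gabra2, the alpha subunit of many synaptic receptors of hippocampal neurons, gave the largest difference of any member and the largest spread. Its level was 74.0, 71.2, 168.8 and 146.0 TPM in p16 WT CTL. Without p16 at rest it was 243.4, 238.8, 227.8 and 133.6 TPM. The lowest p16 KO CTL library, replicate 8, lay below 2 of the p16 WT CTL libraries, so the groups overlapped. The level was 83.0, 140.9, 91.9 and 223.1 TPM in p16 WT RUN, and p16 KO RUN libraries had 172.1, 142.9, 171.4 and 242.7 TPM. In Set B the log2 fold change was 1.00 (SE 0.31), a 2.00-fold level, with p = 0.00947 (adjusted p = 0.625 in limma, exact two-sided permutation p = 0.0857). In Set D it was 0.74 (SE 0.28, p = 0.0265, adjusted p = 0.494 in limma, exact two-sided permutation p = 0.0571). Gabra2 was not called in Set A (-0.26, 95% interval -0.75 to 0.22), Set C (0.21, -0.62 to 1.03), Set E (0.53, -0.14 to 1.21) or the interaction (-0.47, -1.46 to 0.52). The call in Set B was lost without the 3 libraries low in nuclear RNA (0.60) and held with the nuclear RNA (0.98) or the granule marker level (1.26) as a covariate. That in Set D was lost without p16 WT CTL replicate 1, p16 WT CTL replicate 2 or p16 KO RUN replicate 16 (0.56, 0.57 and 0.60). Gabra2 was called in Set E without p16 WT RUN replicate 12 (0.82) or with the nuclear RNA level as a covariate (0.48), and in Set A without p16 KO CTL replicate 8 (-0.47), but the Set A difference was -0.03 without the 3 libraries low in nuclear RNA and -0.02 with that level as a covariate.

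The Gabra2 levels were divided at their 2 widest gaps by ratio, which sets the number of ranges at 3. There were 4 libraries from 71.2 to 91.9 TPM, all of them p16 WT, 7 from 133.6 to 172.1 TPM, from all groups, and 5 from 223.1 to 243.4 TPM, of which 4 were p16 KO and 1 was p16 WT RUN replicate 12. Over the 16 libraries the gene most like Gabra2, of 14438 with a mean of at least 1 TPM, was Zfp605, a zinc finger gene (Pearson r = 0.99, as a description), followed by Alad (0.97), an enzyme of haem synthesis, and Ssbp4 (0.96). Zfp605 lies at chr5:110110092-110129794, Alad at chr4:62505984-62520063 and Ssbp4 at chr8:70597490-70608314 (mm10). Zfp605 was at 15.4 to 17.3 TPM in the 4 lowest Gabra2 libraries, at 27.9 to 36.8 TPM in the 7 middle ones and at 45.9 to 51.8 TPM in the 5 highest. The Zfp605 levels of the 3 ranges did not overlap. Zfp605 was picked from the 14438 genes as the closest in these same libraries, so this match is a description and no separate evidence. Granule neuron markers (r = 0.19) and nuclear RNA (r = -0.20) showed no detectable relation to Gabra2 across libraries (permutation p = 0.48 for each, adjusted p = 0.632; rho = 0.16 and 0.01, permutation p = 0.54 and 0.99). Without the 2 farthest libraries the r with nuclear RNA was 0.62, so its sign rested on them. With granule markers r was -0.05 when the 2 farthest were left out. Within groups r was 0.47 with granule markers and 0.07 with nuclear RNA. GENCODE lists 6 transcripts of Gabra2 of 672 to 5852 bases, and the listed gene value adds up transcripts each divided by its length. Neither the use of transcripts nor the genetic background of the pooled mice was tested.

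Gabrd and Gabra4 encode the subunits of the tonic receptor of granule neurons, and their levels moved together from library to library. Gabrd had 55.7, 38.9, 91.3 and 62.5 TPM in p16 WT CTL and 63.0, 41.8, 66.9 and 51.5 TPM in p16 WT RUN. Without p16 it had 67.7, 65.6, 54.1 and 35.9 TPM at rest and 57.4, 54.3, 48.2 and 81.6 TPM after running. The spread inside each group covered the group means, 55.8 to 62.1 TPM. Its log2 fold changes in the 5 sets were between -0.12 and 0.12 and none was called, but the 95% intervals were wide, from -0.43 to 0.55 in Set A and from -0.66 to 0.52 in Set B. Gabra4 ranged from 74.7 to 129.8 TPM, with group means of 105.9 ± 16.0 TPM in p16 KO RUN, 104.6 ± 2.40 in p16 WT RUN, 97.7 ± 18.3 in p16 WT CTL and 91.0 ± 12.0 in p16 KO CTL (SD, n = 4 each). Its log2 fold changes lay between -0.03 and 0.15 and none was called. Across the 16 libraries Gabrd and Gabra4 had a Pearson r of 0.82, Gabrd and Gabra3 one of -0.81, and Gabra4 and Gabra3 one of -0.74, given as descriptions.

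Gabra5, the alpha subunit rich in hippocampal pyramidal neurons, had 190.9 to 252.3 TPM and group means of 222.7 ± 15.6 TPM in p16 KO RUN, 218.6 ± 21.6 in p16 WT RUN, 223.1 ± 30.9 in p16 WT CTL and 214.9 ± 26.8 in p16 KO CTL (SD, n = 4 each). Its log2 fold change was between -0.04 and 0.04 in all 5 sets, with 95% intervals that stayed within -0.32 and 0.32. It was called in no set.

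Granule neuron markers moved with 4 of the GABA-A subunits. The summed level of the 7 markers ranged from 939.9 to 1425 TPM in p16 KO RUN and from 526.5 to 1065 in p16 KO CTL. Among wild-type libraries it ranged from 821.0 to 1259 TPM after running and from 667.1 to 1396 at rest. Gabrd (Pearson r = 0.91, Spearman rho = 0.89) and Gabra4 (r = 0.87, rho = 0.62) were higher in libraries with more of them, and Gabra3 (r = -0.86, rho = -0.74) and Gabra5 (r = -0.77, rho = -0.82) were lower. The permutation p of r was 1e-05 for Gabrd, the smallest that 100000 permutations can give, 2e-05 for Gabra4, 4e-05 for Gabra3 and 0.00022 for Gabra5, and the adjusted values over the 14 relations were 0.00014, 0.00014, 0.000187 and 0.00077. For rho the permutation p was 2e-05, 0.012, 0.0014 and 0.00023 (adjusted 0.00028, 0.0404, 0.00672 and 0.00161). With the 2 farthest libraries left out r was 0.85, 0.69, -0.70 and -0.74, and within groups it was 0.96, 0.89, -0.88 and -0.81. The relations were chosen after the values had been seen. In tissue RNA, fewer cells of a type and less RNA per cell cannot be told apart. With the marker level as a covariate, Gabra3 was still called in Set A, at a smaller size of -0.29, and in the interaction, at -0.51, and it was also called in Set E (-0.22). Under the same covariate Gabrd turned from 0.06 to -0.24 in Set A and was called, and Gabra2 was called there at -0.55. Gabbr1 (r = -0.29, permutation p = 0.28; rho = -0.46, permutation p = 0.072) and Gabbr2 (r = 0.16, permutation p = 0.56; rho = 0.11, permutation p = 0.7) showed no detectable relation of this kind. For Gabbr1 r was -0.46 without the 2 farthest libraries and -0.49 within groups, and for Gabbr2 -0.14 and -0.18.

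**Figure D4:**
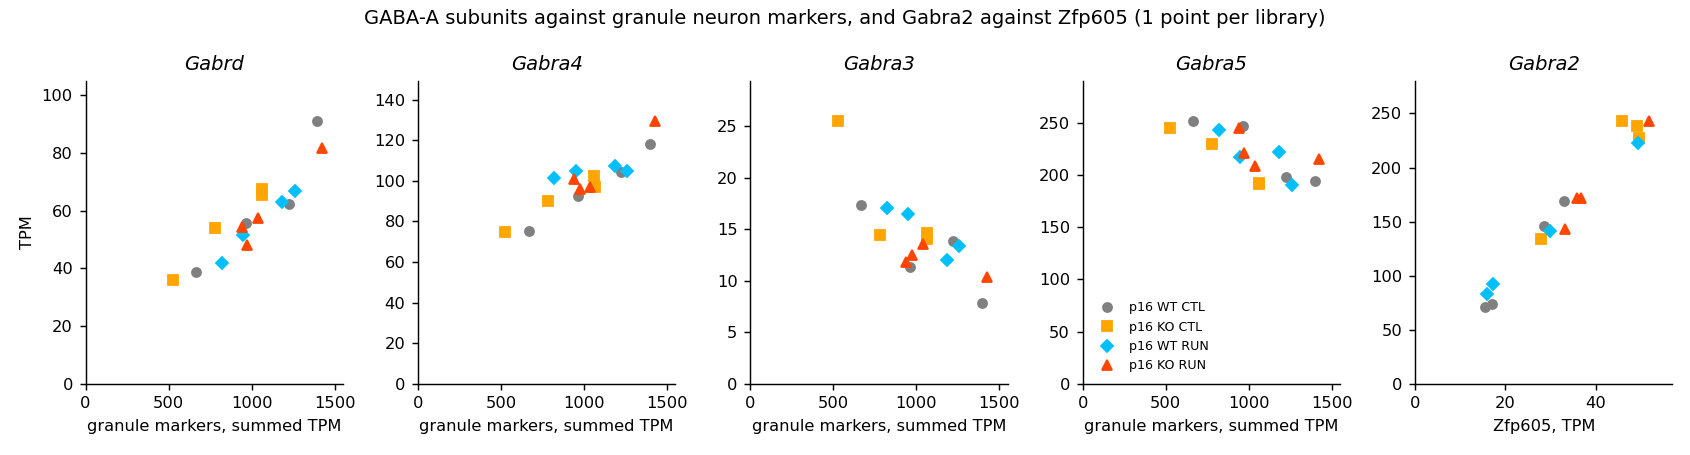
TPM of Gabrd, Gabra4, Gabra3 and Gabra5 against the summed TPM of 7 granule neuron markers, and Gabra2 against Zfp605 in TPM; 1 point per library, 16 in each panel. Gabrd and Gabra4 climb with the markers, Gabra3 and Gabra5 decline, and Gabra2 climbs with Zfp605, which was picked as the gene most like it.

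Over the 16 libraries, as a description, Gabrd was most like Pde1b, Ehd1 and Gprin1 (r = 0.96 for each), and Gabra4 most like Kcnj4 (0.98), Btbd3 (0.95) and Sema5a (0.95). Gabra3 was most like St6gal1 (0.94), Galntl6 (0.94) and Igsf21 (0.93), and Gabra5 most like Pld3 (0.95), Rnf157 (0.93) and St8sia3 (0.93). For Gabbr1 the values were lower, 0.91 for Trnp1, 1110008P14Rik and Dlgap3. For Gabbr2 they were 0.93 for Lpin2, 0.91 for Galnt14 and 0.90 for Olfm4. Gabbr2 and Gabrd share chromosome 4 with Cdkn2a, at 42.3 and 66.1 Mb from it.

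Of 13 other GABA receptor subunits 9 were tested. In Set A, where 18.5% of all genes were called, 1 was called higher and 1 lower, with a list median near 0 on the log2 scale. Gabrb1, a beta subunit, went from 66.9 ± 4.71 TPM in p16 KO CTL to 82.1 ± 3.40 in p16 KO RUN (SD, n = 4; log2 fold change 0.23, adjusted p = 0.155 in limma). Gabrg1, a gamma subunit, went from 13.0 ± 1.12 to 10.0 ± 0.872 TPM (log2 fold change -0.43, adjusted p = 0.158 in limma). Gabrg1 was also called in Set B (0.39) and in the interaction (-0.46). Gabrg3, another gamma subunit, was called only in the interaction (-0.52), and Gabrb1 also in Set D (0.15). No other subunit was called in any set, and Sets C and E held none.

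Of 7 genes that make, move and break down GABA 2 were called lower in Set A and none was higher, beside 18.5% of all genes called in either direction, with a list median of -0.06 against 0.02 over all tested genes. These were Slc6a11 (-0.32), the GABA transporter GAT-3 of astrocytes, and Abat (-0.24), the transaminase that degrades GABA. Their adjusted p in limma was 0.147 for Slc6a11 and 0.224 for Abat. Slc6a11 went from 118.5 ± 5.71 TPM to 99.6 ± 6.74 (SD, n = 4). The summed astrocyte markers ranged from 1166 to 1887 TPM in p16 KO CTL and from 1250 to 1512 in p16 KO RUN. Of these markers 2 of 5 were called lower in Set A (median log2 fold change -0.34), as were 4 of 6 oligodendrocyte markers (median -0.40; 1458 to 2426 TPM against 1132 to 1484) and 2 of 5 microglia markers (median -0.28; 302.7 to 436.7 TPM against 283.4 to 346.2). The part of these glial markers in the lower Slc6a11, Abat and Gabrg1 levels was not tested. Abat was higher in Set B (0.27), and Gad1, which makes GABA, was higher in Set C (0.17). The glial markers were also higher in Set B, where 6.69% of all genes were called. Their median log2 fold change was 0.27 for astrocytes (1 of 5 called higher), 0.41 for oligodendrocytes (1 of 6) and 0.20 for microglia (2 of 5). Their part in the higher Abat and Gabrg1 levels of Set B was not tested. The interneuron markers, 3 of which are on the list of GABA synthesis and transport, summed to 1043 to 1361 TPM in p16 KO RUN, 1283 to 1326 in p16 WT RUN, 999.6 to 1581 in p16 WT CTL and 1176 to 1474 in p16 KO CTL, and all groups overlapped.

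Of the 12 partners and effectors of the GABA-B receptor 2 were called higher and 3 lower in Set A (18.5% of all genes called), with a list median of -0.02. Kcnj6, a potassium channel that the receptor opens, gave the smallest p of the list genes in Set A, from 69.0 ± 10.9 TPM in p16 KO CTL to 102.2 ± 9.43 in p16 KO RUN (SD, n = 4; 0.51, adjusted p = 0.114 in limma). It was also higher in Set C (0.31) and Set D (0.33), and its mean was 101.2 ± 6.71 TPM in p16 WT RUN and 82.0 ± 13.9 in p16 WT CTL. Gnai2 (-0.25) and Gnai1 (-0.31), inhibitory G protein subunits, fell in Set A (adjusted p = 0.17 and 0.211 in limma), and Gnai1 was also called in Set E (-0.19) and in the interaction (-0.38). Kctd12 and Kctd16 encode auxiliary subunits of the receptor. Kctd12 was higher (0.17) and Kctd16 lower (-0.34) in Set B. In Set A each took the opposite direction (-0.15 and 0.26), and Kctd12 was called in the interaction (-0.23). Sets A and B share the p16 KO CTL libraries.

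Of 13 genes that anchor or traffic GABA-A receptors 2 were called higher and 1 lower in Set A, a share near the 18.5% of all genes, with a list median of 0.04. Slitrk3, an adhesion protein of inhibitory synapses (0.26), and Shisa7, an auxiliary subunit (0.38), were higher, and Gabarapl1, a relative of the receptor-associated protein GABARAP, was lower (-0.17). The adjusted p in limma was 0.185 for Slitrk3, 0.229 for Shisa7 and 0.249 for Gabarapl1. In Set A the calls of Slitrk3, Kcnj6, Gnai1, Gnai2, Slc6a11, Gabrb1 and Gabrg1 held in all 8 fits that each left out 1 library. Shisa7 and Abat were called in 5 of them, Kctd16 in 3, and Kctd12 and Gabarapl1 in 2. Outside Set A the calls of Kcnj6 in Set D, Slc12a2 in Set C and Kctd12 in the interaction held in every such fit, that of Kcnj6 in Set C in 7 of 8 and that of Gad1 in Set C in 6. The others held in fewer: Gabrb1 in Set D, Gnai1 in Set E and Gabrg1, Kctd12 and Kctd16 in Set B in 3 of 8, Abat in Set B and Slc12a2 in Set E in 2, and Nlgn2 in Set D in 1. In the interaction Gabrg3 was called in 9 of 16, and Gabrg1 and Gnai1 in 8. No such fit left out p16 KO CTL replicates 6 and 7 together, both low in nuclear RNA. The list of 8 nuclear RNAs was higher in Set A (median log2 fold change 1.06, 2 called higher). Fits of the GABA list genes without the 3 libraries low in nuclear RNA, or with that level as a covariate, are not reported here. The part of nuclear RNA in their differences was not assessed. Nlgn2, a postsynaptic organizer of inhibitory synapses, was called in Set D (0.10). Slc12a2, which loads chloride into the cell, was higher in Set C (0.22) and lower in Set E (-0.15). Sets C and E share the p16 WT RUN libraries, on opposite sides of the comparison. Slc12a5, which extrudes chloride from mature neurons, was called in no set. The adjusted p in limma of the list genes called outside Set A was 0.625 in Set B, 0.985 in Set C, 0.438 to 0.568 in Set D, 1 in Set E and 0.797 in the interaction. No gene of the 5 lists passed an adjusted p of 0.05 in limma.

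**Figure D5:**
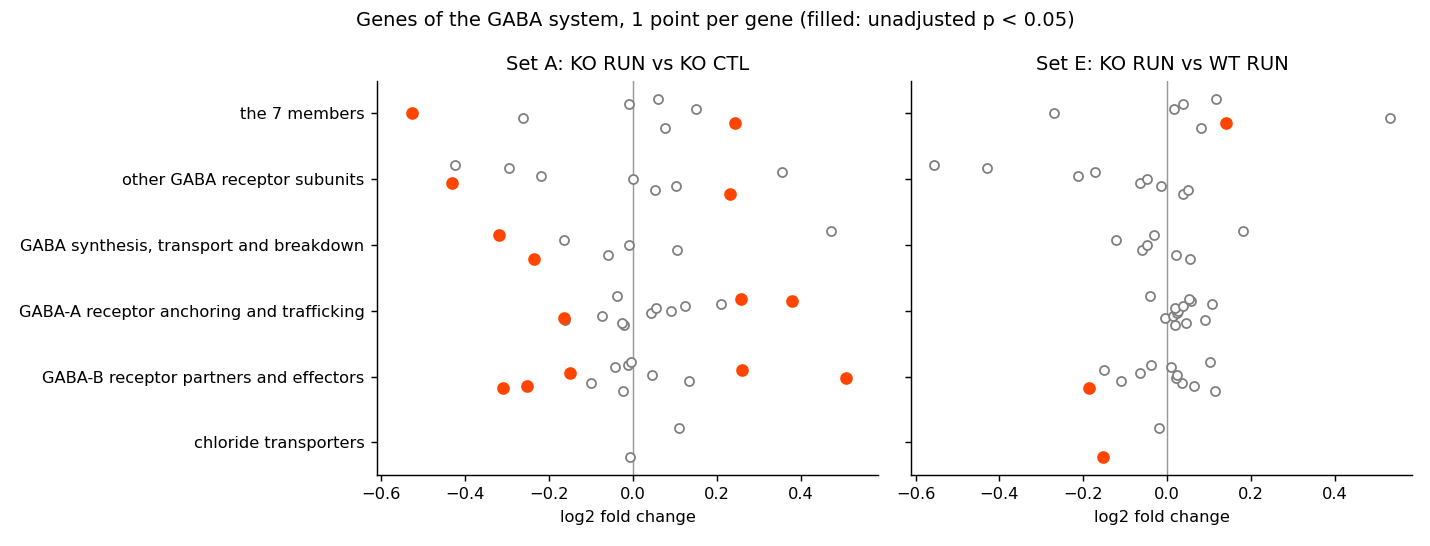
log2 fold change of the 7 members and of the tested genes of 5 lists of the GABA system in Set A (left) and Set E (right), 1 point per gene; filled points have an unadjusted p under 0.05. Called genes lie on both sides of 0 in Set A, and only 3 points are filled in Set E.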

How the data were processed

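RNA of the dentate gyrus was sequenced with a stranded mRNA kit. Per the methods and the submitters' processing notes, the authors used bcl2fastq 2.20, cutadapt 1.11, STAR on mm10 and StringTie, whose deposited gene tables give coverage, FPKM and TPM per library. Coverage gave only the relative depth, and FPKM an alternative. The deposited values in TPM are not counts, so limma 3.58.1 (R 4.3.3, eBayes with trend) replaced the study's DESeq2 test of htseq-count counts. Libraries were scaled by the median ratio over 13226 genes of at least 1 TPM in all, genes averaging 0.1 TPM or more were tested, and 0.1 was added before taking log2, so fold changes of low genes are understated. Entries of the same name were summed. Each set was fitted on its 8 libraries and the interaction on all 16. The p-values measure the spread between libraries of 2 pooled mice. limma was tested on simulated data, but the outcome is not given here and no result rests on it. Single members also had an exact two-sided permutation test over 70 splits, and correlations 100000 permutations. The members and lists were chosen with earlier results of these data known. A few genes of the GABA lists are not reported here and were left out of the list counts. Genes named were all members, up to 3 genes of each GABA list with the smallest p per set (Kctd12 and Kctd16 in Set A were added after their values were seen), and the 3 genes most like each member. Alternatives were other filters, pseudocounts and scalings, FPKM, 1 fit of all libraries, no trend, and leaving out each library. Gene positions are those of the tables.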

Additional observations from a re-analysis of the deposited data

Results flagged for a closer look

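In 40 sets of 4 libraries checked for a value far from the others, in TPM as listed before scaling, 6 stood apart. Chance marks about 1 in 20. Gabra2 was at 133.6 TPM in p16 KO CTL replicate 8, below the other 3 of its group, and Gabra3 was at 25.6 TPM in the same library, above the other 3. That library had the lowest granule marker level and the highest CA1 marker level of all 16. Gabra4 was at 129.8 TPM in p16 KO RUN replicate 16, the library with the highest granule marker level. Gabbr1 was at 454.3 TPM in p16 KO CTL replicate 6 and Gabbr2 at 233.2 TPM in p16 WT CTL replicate 2, both libraries low in nuclear RNA. The scale factors of these libraries were 0.943 and 0.955, so division by them raises both values. Once scaled, Gabbr1 in replicate 6 was no longer the lowest of its group, so these flags depend on the scaling. The CA1 pyramidal markers summed to 134.2 TPM in p16 KO RUN replicate 14, above the other 3 of its group.

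The effect of running differed between the genotypes at an unadjusted p under 0.05 in limma for 2 members and 4 other genes of the GABA lists. The interaction on the log2 scale was -0.78 for Gabra3, 0.20 for Gabbr2, -0.46 for Gabrg1, -0.52 for Gabrg3, -0.23 for Kctd12 and -0.38 for Gnai1. The adjusted p was 0.797 for each, and 5.48% of all genes had an interaction at that level.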

How the results depend on the processing

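The 8 called differences of members kept their sign under all 173 alternatives run and their call under 158. Gabbr2 was called in Sets A and D and in the interaction under every alternative run (0.20 to 0.31, 0.16 to 0.20 and 0.16 to 0.27). Gabra3 ranged from -0.73 to -0.29 in Set A and Gabra2 from 0.60 to 1.26 in Set B. Of 709 alternatives of uncalled differences 23 were called with their sign kept. In 1 more, Gabrd in Set A with the granule marker level as a covariate, the sign turned and the difference was called. No libraries were paired by their labels. No paired analysis was possible because the groups share no replicate numbers. With 1 library left out the members called were 1 to 3 in Sets A and D, 1 to 2 in Set B, 0 in Set C, 0 to 2 in Set E and 1 to 2 in the interaction. With all libraries in 1 fit 2 members were called in Set B, Gabra2 and Gabra3 (12.7% of all genes), and 3 in Set D, where Gabbr1 was added (0.12; 7.42%). Gabbr1 was also called in Set D with no filter, a pseudocount of 0.01, TPM as deposited, quantile normalization and FPKM, which moved its p more than its size (0.12 to 0.13). Alternatives chosen after seeing the data were leaving out the 3 libraries low in nuclear RNA and taking the granule marker or the nuclear RNA level as a covariate. The granule covariate gave 4 members called in Set A (beside 20.1% of all genes) and 2 in Set E, Gabbr2 and Gabra3 (5.47%), and turned Gabrd in Set A to -0.24. The nuclear RNA covariate gave 3 in Set E, Gabbr2, Gabra2 and Gabra3 (4.17%). Without the 3 libraries Gabra3 (0.88) was called in Set B and Gabra2 (0.60) was not. The cause was not tested.

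The share of all genes called in Set A depended on single libraries, 11.7% without p16 KO CTL replicate 7 and 27.4% if its replicate 5 was left out, and was 8.49% without the 3 libraries low in nuclear RNA. In Set B it was 3.22% when p16 KO CTL replicate 7 was left out and 17.5% without p16 WT CTL replicate 2. In the interaction it was 3.57% without replicate 3 of p16 WT CTL and 13.7% without replicate 2. In Set C it was 3.07% without p16 WT RUN replicate 10 and at most 5.88%, in Set D 6.53% to 11.2%, and in Set E 2.81% to 6.05%, the highest without p16 WT RUN replicate 12. The scaling moved the balance of calls. In Set A 1856 genes were higher and 1340 lower, against 2500 and 709 in TPM as deposited and 1534 and 1546 with quantile normalization. In Set B 545 were higher and 613 lower, against 336 and 777 in TPM as deposited and 691 and 572 with quantile normalization, and in the interaction 510 and 439, against 609 and 306 and 407 and 543 under the same settings.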
